A study of Mus musculus with 12 samples.

Results

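The comparison set the livers of 3 fed knock-out (KO) mice against those of 3 fed wild-type (WT) mice, 6 of the 12 arrays of the study. The arrays were chosen by their sample titles: F5, F6 and F8 are the KO fed mice, and F1, F2 and F4 the WT fed mice. The KO mice, labelled deficient for chaperone-mediated autophagy, came from crosses of transgenic C57BL/6 Albumin-Cre mice, whose recombinase is active in hepatocytes, with mice that carry loxP sites around exon 9A of Lamp2. The sources used here do not give whether the WT mice carried Cre or loxP alleles, nor the sex and age of the animals. All fed mice ate standard chow. The other 6 arrays are from WT and KO mice starved for 24 h, 3 in each group, and were used for the common estimate of the spread and to show where the fed difference departs from the starved one. RNA came from a small piece of whole liver, so fewer cells of a type and less RNA per cell cannot be told apart. Each array stands for 1 labelled mouse; with 3 per group their number sets the precision.

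Chaperone-mediated autophagy is a selective route into the lysosome. The chaperone Hspa8 recognises single cytosolic proteins and brings them to the lysosomal membrane, where the LAMP2A splice form of Lamp2, which ends in exon 9A, acts as receptor and translocation pore. In liver the pathway is known to act on metabolic enzymes and lipid droplet coat proteins. The comparison asks which transcripts differ when hepatocytes lack this route while food is available.

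Levels are on the log2 scale of the deposited table (1 unit is 2-fold), and every difference is KO fed minus WT fed. Of 20719 genes, 0 passed the threshold of a limma adjusted p under 0.05, a called share of 0%. The smallest adjusted p was 1. At an unadjusted p under 0.05 there were 603 genes (2.91%), of which 258 were higher (1.25%) and 345 lower (1.67%) in KO liver. For 1651 genes (7.97%) the 3 KO values did not overlap with the 3 WT values, with KO higher in 540 (2.61%) and lower in 1111 (5.36%). Centring each array on its median turned these splits into 349 higher against 303 lower and 711 against 882, and cyclic loess scaling into 393 against 360 and 770 against 871. The central 90% of differences lay between -0.25 and 0.25, with a median of -0.01. Of all genes, 9512 had a difference above 0 and 11207 below it. Median centring gave 10618 above and 10101 below, and cyclic loess scaling 10095 and 10624. At least 1.5-fold differences were seen for 97 genes higher and 80 lower, and at least 2-fold ones for 28 and 15. The median 95% confidence interval of a difference was 0.33 wide on either side. All genes below are therefore described by their values, and an adjusted p of 1 from limma applies to each of their fed differences unless another fit is named.

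The fed arrays differed in the spread of their values in a way the genotype labels do not follow. The interquartile range was 2.97 on WT F1 and 3.04 on KO F6, against 2.74 to 2.91 on the other 4 arrays. WT F1 and KO F6 were each other's closest fed array, with a Pearson correlation across genes of 0.9928. Pairs of the other 4 arrays correlated at 0.99 to 0.9937, and pairs across the 2 kinds at 0.9713 to 0.9845. An exact two-sided permutation test of the interquartile range between genotypes gave p = 0.6 (the smallest p that 3 against 3 arrays allow is 0.1). Because each genotype had 1 wide array, differences are also given within wide arrays (F6 minus F1) and within narrow arrays (F5 and F8 against F2 and F4). Hepatocyte markers had a mean level of 13.05 to 13.50 in WT and 13.14 to 13.51 in KO arrays.

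**Figure D1:**
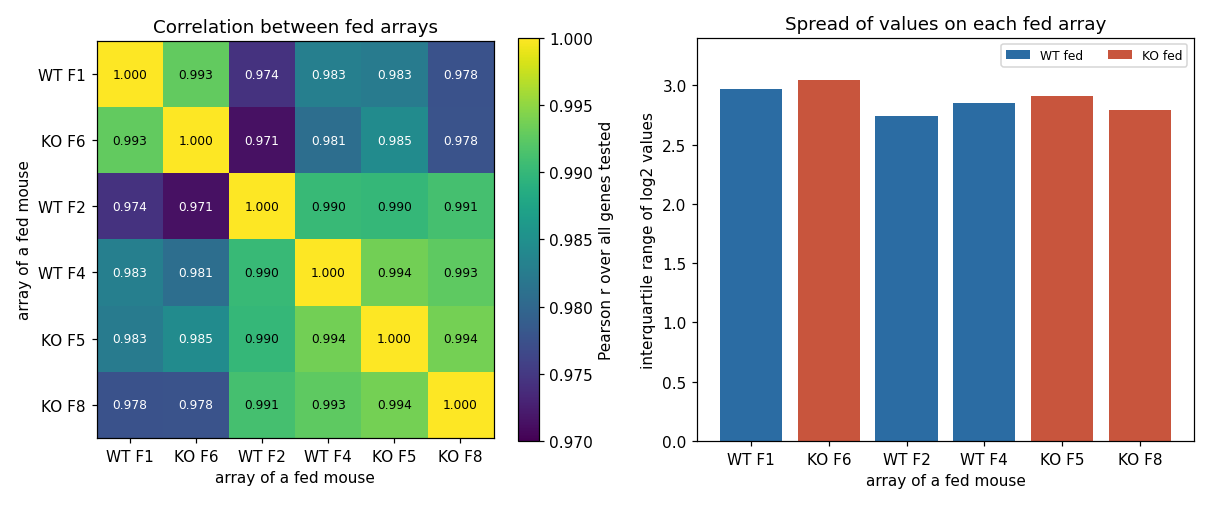
Left, Pearson correlation over all genes between the 6 arrays of fed mice. Right, bars of the interquartile range of the log2 values on each array by genotype. WT F1 and KO F6 have the widest ranges, 2.97 and 3.04, and resemble each other more than the arrays of their own genotype.

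Lamp2 was read by 1 gene-level probe set whose exons the sources used here do not give, so its level checks neither the deletion nor the labels. It was 12.61, 12.24 and 12.25 in WT fed mice F1, F2 and F4, and 12.51, 12.81 and 12.49 in KO fed mice F5, F6 and F8. The groups overlapped, and the KO mean was 0.24 above the WT mean (SE 0.14). Of 18 genes of chaperone-mediated autophagy, 0 had an unadjusted limma p under 0.05 (2.91% of all genes) and 0 were called. Differences ran from -0.11 to 0.25, with 11 above 0 and a median of 0.03, close to the median of all genes. Hspa8, the substrate-recognising chaperone, differed by 0.13 (SE 0.18), and Hsp90aa1, a cytosolic chaperone, by 0.25 (SE 0.21). The lysosomal list of 50 hydrolases and membrane proteins was split 25 above and 25 below 0, with a median of 0.00. In it 0 genes had an unadjusted limma p under 0.05 (2.91% of all genes). Among 38 genes of macroautophagy and mitophagy 21 lay above 0, with a median of 0.06. Atg16l1, which helps lipidate LC3 on forming autophagosomes, stood higher by 0.26 (SE 0.15), and Pink1, a kinase that marks damaged mitochondria, lower by 0.18 on the log2 scale, both with groups apart. The median of these lists changed sign when single arrays were left out, from -0.02 to 0.18 for chaperone-mediated autophagy and from -0.16 to 0.18 for the lysosome.

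No gene passed the limma threshold, so 12 genes per direction were taken by smallest p from those with at least a 1.5-fold difference, groups apart and a level above the median gene, which 34 genes met with KO higher and 18 with KO lower. The rule used the fed difference, so the direction of these genes is given as a description. Higher in KO were Postn, Golph3l, Sgce, Efemp1, Kcnt2, Zfp39, Lcn2, Fgl1, Amd1, Derl3, Efna1 and Serpina3c. The 10 described here as lower in KO were Mfsd2a, Lrtm1, Ccrn4l, Cebpb, Slc25a25, Kcnk5, Grk5, Dexi, Gsta1 and Cxcl13.

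**Figure D2:**
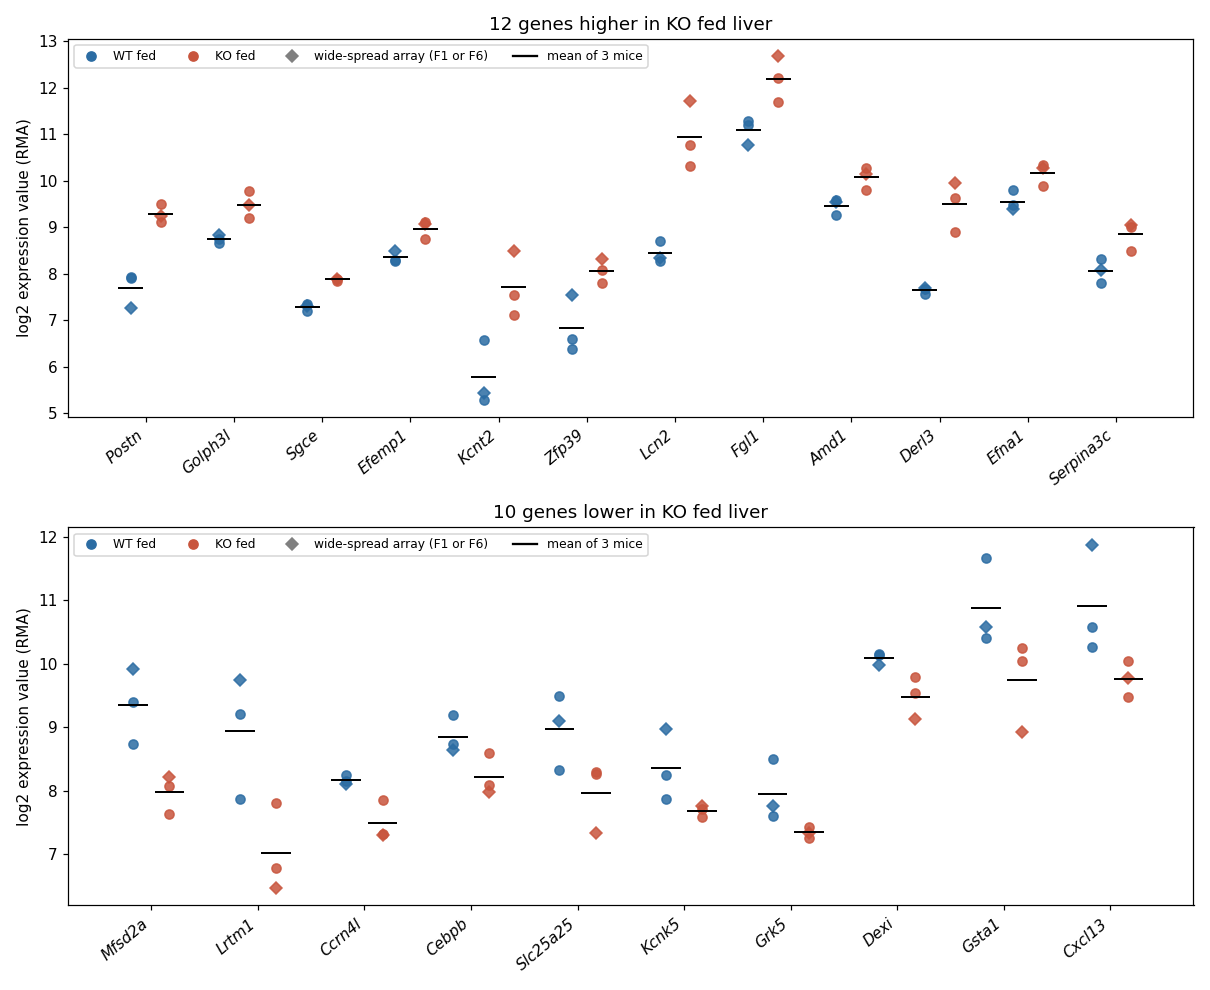
Log2 expression values of 22 named genes in the 6 fed mice. Each point is 1 mouse, diamonds mark the arrays of wide spread (F1 and F6), and black lines are means of 3 mice. Lcn2 lies at 8.27 to 8.70 in WT and 10.32 to 11.71 in KO, and Mfsd2a at 8.74 to 9.92 in WT and 7.64 to 8.21 in KO.

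Acute phase genes stood higher in KO fed liver. These genes encode plasma proteins that hepatocytes make more of, or less of, when interleukin-6 and related cytokines signal through STAT3, C/EBP and NF-kB. Lcn2, a siderophore-binding protein, was 8.35, 8.70 and 8.27 in WT F1, F2 and F4, and 10.77, 11.71 and 10.32 in KO F5, F6 and F8. Every KO mouse lay above every WT mouse, and KO F6 was the highest. The difference of 2.495 (SE 0.53), or 5.64-fold, had a 95% confidence interval of 1.33 to 3.66, and it was 3.36 within wide and 2.06 within narrow arrays.

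Orm2, an orosomucoid that binds lipophilic molecules in plasma, was 10.11, 10.26 and 10.20 in the WT mice and 12.05, 12.68 and 11.03 in the KO mice. The WT values were close together and the KO values spread over more than 1 log2 unit, without overlap. Its difference was 1.73 (SE 0.69, 95% confidence interval 0.21 to 3.24). Orm1 and Orm3 are close relatives of Orm2, so their signals may not be fully separate. Orm1 differed by 0.20 (SE 0.14) and Orm3 by 0.19 (SE 0.36).

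The serum amyloids, lipoprotein-bound acute phase proteins, had the widest spread. Saa2 was 6.11, 8.09 and 8.44 in WT and 9.79, 10.63 and 9.35 in KO mice. Its groups did not overlap, but with the common spread the SE was 1.29 for a difference of 2.38 (95% confidence interval -0.46 to 5.21). Saa1, nearly identical to Saa2 in sequence, differed by 1.88 (SE 1.17), and Saa3 by 1.02 (SE 0.61). WT F1, the wide WT array, had the lowest value of all 3 amyloids. Fgl1, a secreted fibrinogen-like protein induced by interleukin-6, was 10.77, 11.21 and 11.29 in WT and 12.22, 12.69 and 11.70 in KO mice. All 3 KO values were above the WT values, and the difference was 1.11 (SE 0.25), with 1.92 within wide and 0.71 within narrow arrays. Serpina3c, of a family of closely related serine protease inhibitors, stood higher by 0.78 (SE 0.20). Fgl1 and Serpina3c are not members of the acute phase list counted below. They were named by the rule that used the fed difference.

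Of the 33 acute phase genes measured, 29 were above 0 and 4 below, with a median difference of 0.20 against -0.01 for all genes. The median ran from 0.07 without WT F2 to 0.33 without WT F1. The limma test called 0 of them. At an unadjusted p under 0.05, 2 were higher (1.25% of all genes) and 1 lower (1.67% of all genes). With array spread as a block, 7 were higher (3.12% of all genes) and 1 lower (3.98% of all genes) at that p, out of 7.1% in either direction. In 8 the groups lay apart with KO higher (2.61% of all genes), namely Lcn2, Orm1, Orm2, Saa1, Saa2, Saa3, Alb and Ttr. With cyclic loess scaling 5 lay apart with KO higher (3.72% of all genes), and with median centring 8 (3.43% of all genes). Either scaling left 29 of the 33 above 0. Alb and Ttr, the albumin and transthyretin genes, are known as negative acute phase proteins, and differed by 0.06 and 0.09. Hp, the haemoglobin-binding haptoglobin, differed by 0.45 (SE 0.24), with overlap. Hamp2, a gene next of kin to hepcidin, went the other way, from 9.65, 10.79 and 10.67 in WT to 9.82, 8.80 and 9.85 in KO mice (difference -0.88, SE 0.40), with overlap. Neutrophils also carry Lcn2. The mean level of 11 neutrophil markers was 5.41 to 5.52 in WT and 5.43 to 5.54 in KO arrays, below the median value of each fed array (6.41 to 6.47). The part of neutrophil number in the Lcn2 values was not tested.

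Signalling genes upstream of the acute phase response gave a mixed picture. Socs3, a feedback inhibitor that cytokines induce through STAT3, was 7.52, 7.43 and 7.53 in WT and 7.80, 8.21 and 7.63 in KO mice. These groups lay apart by a small margin, for a difference of 0.38 (SE 0.16, 95% confidence interval 0.04 to 0.73). Cxcl1, a neutrophil-attracting chemokine, differed by 0.88 (SE 0.42), Nfkbiz, an NF-kB cofactor, by 0.36 (SE 0.17) and Il1r1, the interleukin-1 receptor, by 0.83 (SE 0.55), each with KO values above WT values. Stat3 itself overlapped (difference 0.37, SE 0.38). Cebpb, a transcription factor of acute phase and gluconeogenic genes, was lower in KO: 8.64, 9.18 and 8.73 in WT and 8.59, 7.98 and 8.08 in KO mice. KO F5 lay just below the lowest WT value, and the difference was -0.63 (SE 0.18, 95% confidence interval -1.03 to -0.23). Of the 28 genes of this list 18 were above 0, with a median of 0.09 that was -0.01 without WT F2 and 0.21 without KO F8.

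The promoters of Lcn2 and Orm2 are shown because these 2 genes of the list were higher at an unadjusted p under 0.05. Hamp2, lower at that p, has a window that holds the STAT3 letters given below and not the C/EBP letters. The sequences are the 250 bases before the RefSeq start (GRCm38.p6), read 5′ to 3′ on the gene's strand, with matches to the C/EBP letters TTGCNNAA in capitals.
Lcn2 (chr2:32387740-32387989, minus strand): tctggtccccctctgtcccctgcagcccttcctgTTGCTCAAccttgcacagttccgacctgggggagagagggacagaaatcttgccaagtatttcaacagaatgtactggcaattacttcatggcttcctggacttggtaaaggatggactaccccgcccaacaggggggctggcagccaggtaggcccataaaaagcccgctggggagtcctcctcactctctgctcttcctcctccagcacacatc
Orm2 (chr4:63362199-63362448, plus strand): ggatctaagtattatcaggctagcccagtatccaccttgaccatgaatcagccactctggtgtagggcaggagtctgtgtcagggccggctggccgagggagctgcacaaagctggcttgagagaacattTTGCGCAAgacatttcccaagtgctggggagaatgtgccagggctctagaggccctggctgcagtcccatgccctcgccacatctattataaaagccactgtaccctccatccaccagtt
On either strand, 14 of 24 acute phase promoters in the RefSeq table held these letters (58.3%), against 10.2% of the 15626 promoters of tested genes. The STAT3 letters TTCNNNGAA stood in 7 of the 24 (29.2%) and in 7.76% of all promoters. The match lies 216 bases before the start of Lcn2 and 120 bases before that of Orm2; neither window holds the STAT3 letters. A match is a description of the letters and not a measured site.

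The fed acute phase difference did not carry over to starved liver. In starved mice Lcn2 was 12.49, 10.64 and 13.23 in WT S3, S4 and 3, and 9.33, 9.50 and 9.29 in KO S5, S6 and S7, the reverse order of the fed groups. Its KO minus WT difference was -2.75 (SE 0.53) there, 5.24 below the fed difference (SE 0.75). That interaction had the smallest limma p of all genes, with an adjusted p of 0.409, so it did not pass. Orm2 followed the same order, with 10.99, 9.57 and 13.18 in WT starved and 9.09, 8.87 and 9.11 in KO starved mice. The acute phase median was 0.20 in fed and -0.27 in starved mice, and the median of the gene-wise fed minus starved differences was 0.54. At an unadjusted limma p under 0.05, 10 of 33 genes had a fed difference above the starved one, as had 231 of all genes (1.11%), and 0 a difference below it, as had 191 (0.922%); in either direction these were 422 genes (2.04%).

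**Figure D3:**
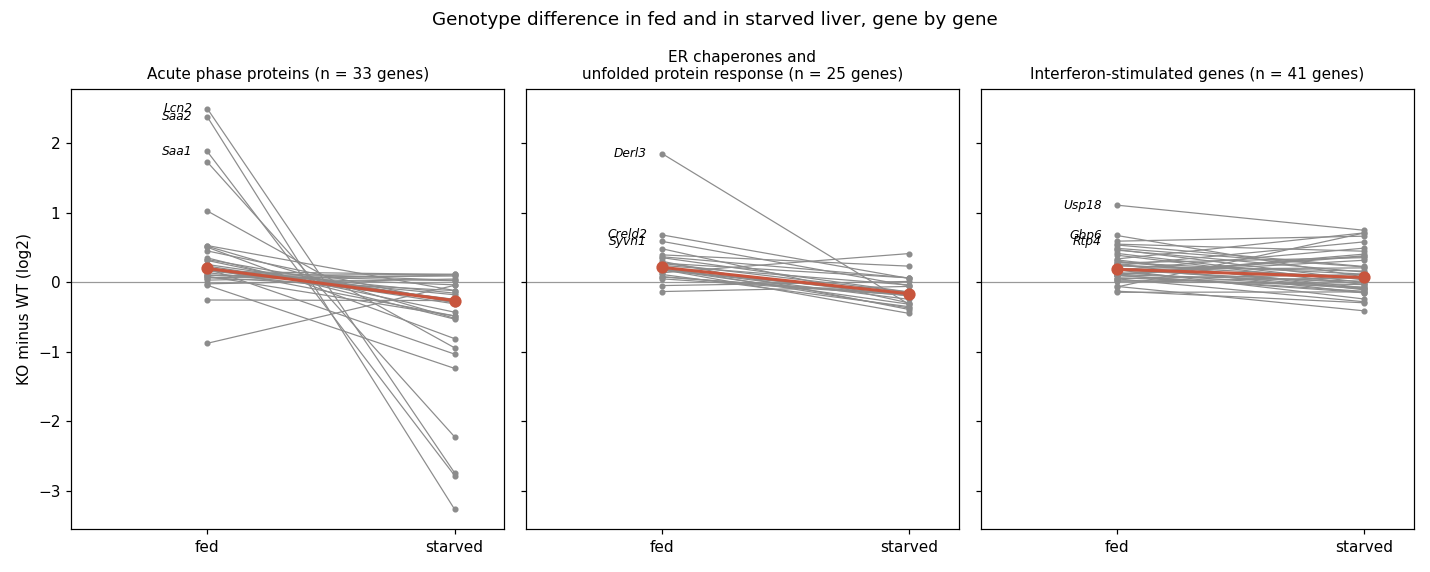
KO minus WT difference (log2) of each gene in fed and in starved liver, joined by a line, for 3 gene lists; red marks the list median and names mark the 3 highest fed differences. The acute phase median is 0.20 in fed and -0.27 in starved mice, that of ER chaperones 0.21 and -0.17, and that of interferon-stimulated genes 0.18 and 0.07.

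Genes of the unfolded protein response were mostly higher in KO fed liver, led by Derl3. When unfolded proteins accumulate in the endoplasmic reticulum (ER), the sensors Atf6, Ern1 and Eif2ak3 raise chaperones and the machinery that exports faulty proteins for degradation. Derl3, part of that export channel, was 7.70, 7.56 and 7.68 in WT and 8.91, 9.94 and 9.63 in KO mice. The WT values were close together and all KO values were above them. The difference was 1.85 (SE 0.42, 3.6-fold, 95% confidence interval 0.94 to 2.76), and 2.25 within wide and 1.65 within narrow arrays.

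No other gene of the list had groups apart (7.97% of all genes) or an unadjusted limma p under 0.05 (2.91% of all genes). Creld2, a secreted ER stress protein, was 9.77, 10.49 and 10.31 in WT and 11.54, 11.20 and 9.87 in KO mice, with KO F8 inside the WT range (difference 0.68, SE 0.49). Hspa5, the main ER chaperone BiP, overlapped as well (0.21, SE 0.32), as did Sdf2l1 (0.48, SE 0.35), an ER chaperone partner, and Syvn1 (0.59, SE 0.49), the ubiquitin ligase of ER-associated degradation. Of 25 genes 23 were above 0, with a median of 0.21, and the limma test called 0. That median rested on KO F6: without it the value was -0.09, and without KO F8 it was 0.47. Chac1, a glutathione-degrading enzyme induced by ATF4, stood higher by 0.35 (SE 0.13) with groups apart, within a list of 23 ATF4 targets whose median was -0.03.

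The ER stress response element, CCAAT and CCACG separated by 9 bases, is the letter pattern most often linked to ATF6 at chaperone genes, and the promoters of Derl3, Hspa5 and Creld2 are shown with it in capitals (250 bases before the RefSeq start, GRCm38.p6, 5′ to 3′ on the gene's strand). In Derl3 and Creld2 it is on the opposite strand and so appears reversed and complemented.
Derl3 (chr10:75893148-75893397, plus strand): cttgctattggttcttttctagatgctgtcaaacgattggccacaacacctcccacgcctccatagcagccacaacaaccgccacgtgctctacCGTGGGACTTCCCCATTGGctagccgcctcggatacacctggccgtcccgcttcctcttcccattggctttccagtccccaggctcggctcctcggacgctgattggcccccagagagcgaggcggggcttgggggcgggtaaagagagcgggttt
Hspa5 (chr2:34771840-34772089, plus strand): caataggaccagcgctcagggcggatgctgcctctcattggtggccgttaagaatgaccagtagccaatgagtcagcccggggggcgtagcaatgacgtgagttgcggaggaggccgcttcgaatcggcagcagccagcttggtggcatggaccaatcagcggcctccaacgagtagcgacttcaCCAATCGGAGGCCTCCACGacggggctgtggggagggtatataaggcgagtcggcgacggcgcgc
Creld2 (chr15:88819396-88819645, plus strand): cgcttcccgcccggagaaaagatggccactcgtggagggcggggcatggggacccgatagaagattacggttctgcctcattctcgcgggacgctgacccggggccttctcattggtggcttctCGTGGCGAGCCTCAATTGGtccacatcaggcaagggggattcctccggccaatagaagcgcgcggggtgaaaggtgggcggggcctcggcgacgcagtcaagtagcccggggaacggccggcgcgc
Searched on both strands, it stood in 10 of 22 promoters of the list that the RefSeq table holds (45.5%), and in 24 of 15626 promoters in all (0.154%). The matches begin 156, 65 and 126 bases before the starts of Derl3, Hspa5 and Creld2. All 3 promoters hold it, while only Derl3 had groups apart.

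Interferon-stimulated genes, which encode antiviral effectors and antigen-presentation proteins, stood slightly higher in KO fed liver. Usp18, a protease that removes ISG15 and dampens interferon signalling, was 7.86, 7.94 and 8.01 in WT and 9.78, 8.72 and 8.62 in KO mice. KO F5 was the highest, and the groups were apart (difference 1.11, SE 0.43, 95% confidence interval 0.16 to 2.06). Irf9, the DNA-binding part of the interferon-activated complex, differed by 0.55 (SE 0.36), and Irgm1, an immunity-related GTPase, by 0.46 (SE 0.29), both with groups apart. B2m, the light chain of class I antigen-presenting molecules, was 13.81, 13.65 and 13.82 in WT and 13.96, 13.94 and 13.91 in KO mice, a small but non-overlapping difference of 0.17 (SE 0.09). Of 41 genes 37 were above 0, the groups of 5 lay apart with KO higher (2.61% of all genes), and 0 lay apart with KO lower (5.36% of all genes). With cyclic loess scaling 35 were above 0 and 4 lay apart with KO higher (3.72% of all genes). With median centring these were 37 and 5 (3.43% of all genes). At an unadjusted limma p under 0.05, 1 was higher (1.25% of all genes) and 0 lower (1.67% of all genes). The median of 0.18 ran from 0.11 without KO F5 to 0.34 without KO F8, and was 0.13 within wide and 0.26 within narrow arrays. In starved mice the list median was 0.07.

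The Irgm1 promoter is shown because it holds overlapping matches to the interferon-stimulated response element, TTTC, 2 bases of any kind and TTTC, on either strand (250 bases before the RefSeq start, GRCm38.p6, 5′ to 3′ on the gene's strand; matches on the opposite strand in capitals).
Irgm1 (chr11:48871421-48871670, minus strand): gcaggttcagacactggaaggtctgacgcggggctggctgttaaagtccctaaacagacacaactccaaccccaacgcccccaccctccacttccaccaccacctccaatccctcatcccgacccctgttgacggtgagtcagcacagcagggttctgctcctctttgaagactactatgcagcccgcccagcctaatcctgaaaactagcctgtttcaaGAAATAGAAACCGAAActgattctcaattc
The matches begin 30 and 24 bases before the start. The pattern stood in 12 of 29 promoters of the list (41.4%) and in 3.5% of all promoters. Irgm1 and B2m are among these 12, while Usp18 and Irf9 are not.

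The proteasome, complement and cholesterol lists stood above 0 with smaller medians than the interferon-stimulated list. Of 42 proteasome subunits 36 were above 0, but their median was 0.11 and the largest difference 0.27; Psmc3, an ATPase of the regulatory cap, differed by 0.23 (SE 0.11). Complement and coagulation genes had 34 of 42 above 0 (median 0.13), with Cfi, the protease that inactivates C3b, higher by 0.57 (SE 0.26) with overlap. That median was -0.07 without WT F2 and -0.04 without KO F6. Cholesterol synthesis and uptake had 20 of 26 above 0 (median 0.13, and 0.00 without WT F2). In 4 of its 26 genes every KO value lay above every WT value (2.61% of all genes): Idi1 (0.54, SE 0.40), Cyp51 (0.41, SE 0.36), Sc4mol (0.42, SE 0.43) and Acat2 (0.13, SE 0.17), enzymes of the sterol route from the thiolase step (Acat2) to demethylation (Cyp51, Sc4mol). Insig2, which holds the sterol sensor in the ER, stood lower, at -0.34 (SE 0.15).

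Metallothioneins bind zinc and copper. Mt2 was 8.12, 8.81 and 11.48 in WT and 10.69, 12.09 and 10.59 in KO mice, with WT F4 above 2 of the KO mice. Its difference of 1.65 (SE 0.69, 95% confidence interval 0.14 to 3.16) was 3.97 within wide and 0.50 within narrow arrays. Mt1 was likewise variable, at 0.54 (SE 0.36). The list of metallothioneins and zinc transporters holds only 8 genes, of which 0 had groups apart (7.97% of all genes). Its median of 0.27 ran from -0.03 to 0.47 when single fed arrays were left out.

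Mfsd2a was the gene with the smallest limma p among those that the naming rule took as lower in KO fed liver. It encodes a transporter that takes up lysophosphatidylcholine with long-chain polyunsaturated fatty acids. Its values were 9.92, 8.74 and 9.39 in WT and 7.64, 8.21 and 8.07 in KO mice. All KO values were below all WT values, and the difference was -1.38 (SE 0.32, a 2.59-fold lower level, 95% confidence interval -2.07 to -0.68). It was -1.70 within wide and -1.21 within narrow arrays. With array spread as a block, which was added after seeing the data, it passed the threshold (limma adjusted p = 0.0432), as did Postn and 2 further genes (0.0193% of all).

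Genes of fatty acid and triglyceride synthesis stood lower, with 22 of 28 below 0 and a median of -0.19. Thrsp, a nuclear protein that promotes lipogenesis, was 10.62, 11.54 and 10.82 in WT and 10.23, 8.59 and 10.33 in KO mice. The groups lay apart, with KO F6 far below the rest (difference -1.28, SE 0.59, 95% confidence interval -2.58 to 0.02). Me1, the malic enzyme that supplies NADPH, was 11.50, 10.61 and 10.49 in WT and 9.95, 10.55 and 9.98 in KO mice. KO F6 lay between the WT values, and the difference was -0.71 (SE 0.31, 95% confidence interval -1.38 to -0.03). The other lipogenic enzymes overlapped: Acly -0.44 (SE 0.27), Fasn -0.43 (SE 0.39) and Scd1 -0.61 (SE 0.44). Their regulator Srebf1 differed by -0.40 (SE 0.25). WT F1 was the highest array for Me1, Fasn, Acly, Scd1 and Srebf1, and without it the list median was -0.03.

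Clock genes gave the lowest list median, -0.22, with 16 of 22 below 0. The hepatic clock runs on Arntl and Clock, their repressors Per and Cry, and the receptor Nr1d1, which represses Arntl. Ccrn4l, now named Noct, a clock-driven phosphatase, was 8.11, 8.24 and 8.15 in WT and 7.31, 7.30 and 7.85 in KO mice, apart and lower by 0.68 on the log2 scale (difference -0.68, SE 0.19).

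Nr1d1, the repressor of Arntl, ran the other way, at 7.74, 6.61 and 7.40 in WT and 8.06, 9.24 and 8.70 in KO mice (difference 1.41, SE 0.58, 95% confidence interval 0.14 to 2.69). Cry1 and Per2, repressors of the loop, were lower with groups apart (-0.60, SE 0.28, and -0.22, SE 0.20), as was Gm129, now named Ciart (-0.57, SE 0.51). Of the 22 clock genes 5 lay apart with KO lower (5.36% of all genes) and 1 with KO higher (2.61% of all genes). Those lower were 3 with median centring (4.26% of all genes) and 6 with cyclic loess scaling (4.2% of all genes). Arntl itself differed by 0.05 (SE 0.16) and the output gene Dbp by -0.07 (SE 0.21). The sources used here do not give the time of day of sampling, and its part in these values was not tested. The list median was -0.10 without WT F1 and -0.43 without KO F6. The E-box letters CACGTG stood in 4 of 18 promoters of the list (22.2%) and in 8.11% of all, and the D-box letters TTATGTAA, on either strand, in 1 of 18 (5.56%) and 0.89%.

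Genes of glucose output and of the FOXO response to low insulin tended lower. Of 21 gluconeogenesis genes 15 were below 0 (median -0.11, from -0.33 without WT F2 to -0.04 without WT F1). G6pc, the enzyme that releases glucose, was 13.22, 12.23 and 12.80 in WT and 12.28, 12.23 and 11.86 in KO mice. WT F2 lay within the KO range, and the difference was -0.63 (SE 0.23, 95% confidence interval -1.12 to -0.13). Gpt2, a mitochondrial alanine aminotransferase, stood lower at -0.70 (SE 0.29), while Pck1, the first committed enzyme of the route, varied widely (-0.46, SE 0.49).

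Ccng2, a cyclin that FOXO factors induce, was 7.42, 7.45 and 7.47 in WT and 7.10, 7.09 and 7.12 in KO mice. The difference of -0.34 (SE 0.09, 95% confidence interval -0.55 to -0.14) is modest, and the mice of each group lay close together. Klf15, a fasting-induced regulator of amino acid breakdown, was lower with groups apart (-0.38, SE 0.12). The insulin and FOXO list as a whole had a median of -0.06, and 0.01 without WT F1 or KO F8. Amino acid catabolism and the urea cycle had 35 of 44 genes below 0 (median -0.11, and 0.02 without WT F1). Cth, which makes cysteine, differed by -0.45 (SE 0.16), and Asl, the argininosuccinate lyase, by -0.54 (SE 0.21), both with overlap. Slc25a25, a calcium-regulated mitochondrial ATP-Mg carrier, was 9.09, 8.32 and 9.48 in WT and 8.26, 7.32 and 8.30 in KO mice. KO F5 and F8 lay just below WT F2, and the difference was -1.004 (SE 0.31); in starved mice it was -0.87.

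Detoxification genes that NRF2 controls differed gene by gene. Gsta1, a glutathione transferase, was 10.58, 10.40 and 11.67 in WT and 10.04, 8.93 and 10.24 in KO mice, apart, with a difference of -1.15 (SE 0.42, 95% confidence interval -2.07 to -0.22). Gsta2, a near-identical copy whose signal may be shared, differed by -1.01 (SE 0.42). Gpx2, a glutathione peroxidase, was lower at a dim level (-0.58, SE 0.19), with groups apart. The 30 NRF2 targets had 13 above and 17 below 0 and a median of -0.07, close to that of all genes. The antioxidant response element core TGACNNNGC, on either strand, stood in 7 of 27 of their promoters (25.9%) and in 12.5% of all.

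Iron regulation had 14 of 18 genes below 0 and a median of -0.14, which stayed between -0.17 and -0.09 whichever fed array was left out. Bmp6, the ligand that raises hepcidin, was 7.91, 7.98 and 8.48 in WT and 7.54, 7.67 and 7.87 in KO mice. Smad7, the feedback inhibitor of that pathway, was 7.77, 7.80 and 7.55 in WT and 7.44, 7.32 and 7.14 in KO mice. Both had groups apart, with differences of -0.43 (SE 0.15) for Bmp6 and -0.41 (SE 0.11) for Smad7. Hamp, hepcidin itself, differed by -0.05 (SE 0.40). Tmprss6, the protease that restrains the pathway, was the third of 18 genes with groups apart and KO lower (5.36% of all genes), at -0.20.

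Postn had the smallest p of all genes. It encodes periostin, a matrix protein of stellate cells and fibroblasts. Its values were 7.26, 7.92 and 7.93 in WT and 9.50, 9.25 and 9.11 in KO mice. Every KO value was above every WT value (difference 1.58, SE 0.28, 3.00-fold, 95% confidence interval 0.97 to 2.20). It was 1.995 within wide and 1.38 within narrow arrays, and 0.38 (SE 0.28) in starved mice.

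Other matrix and stellate genes did not share this size of difference. The mean level of 18 stellate and fibroblast markers was 7.92 to 8.07 in WT and 7.94 to 8.26 in KO arrays, overlapping. Postn itself is in that list and raises its KO mean. Col1a1, the main fibrillar collagen, differed by -0.06 (SE 0.12), Lum, a collagen-binding proteoglycan, by 0.45 (SE 0.30), and Pdgfrb, the platelet-derived growth factor receptor of stellate cells, by 0.22 (SE 0.10). The list median was -0.05. Efemp1, the extracellular protein fibulin-3, was 8.50, 8.29 and 8.28 in WT and 8.74, 9.07 and 9.10 in KO mice (0.62, SE 0.12). Sgce, a membrane sarcoglycan, was 7.30, 7.20 and 7.35 in WT and 7.84, 7.89 and 7.90 in KO mice. Its values were close in each group, and the difference was 0.59 (SE 0.12).

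A macrophage receptor and a chemokine stood lower. Marco, a scavenger receptor of Kupffer cells, was 7.02, 6.14 and 6.70 in WT and 6.07, 5.86 and 5.87 in KO mice (-0.69, SE 0.21, 95% confidence interval -1.15 to -0.23). Its groups were apart, with WT F1 highest. Of 17 Kupffer cell and macrophage markers 13 were below 0 (median -0.15, and -0.03 without WT F1), while Clec4f, which marks Kupffer cells, differed by -0.05 (SE 0.20). Their mean level was 8.66 to 9.11 in WT and 8.68 to 8.77 in KO arrays, overlapping. Cxcl13, a B cell-attracting chemokine, was 11.87, 10.26 and 10.57 in WT and 10.04, 9.77 and 9.48 in KO mice (-1.14, SE 0.43). The part of macrophage number in these values was not tested.

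The remaining named genes belong to no common list. Kcnt2, a sodium-activated potassium channel, was 5.43, 6.58 and 5.29 in WT and 7.55, 8.49 and 7.12 in KO mice (1.95, SE 0.40), and its difference was -0.53 in starved mice. Zfp39, a zinc finger protein, was 7.54, 6.38 and 6.59 in WT and 8.08, 8.32 and 7.80 in KO mice (1.23, SE 0.26). Both had all KO values above all WT values. Golph3l, a Golgi membrane protein, differed by 0.73 (SE 0.14), Efna1, an ephrin ligand, by 0.61 (SE 0.15), and Amd1, an enzyme of polyamine synthesis with a close copy in the mouse, by 0.61 (SE 0.14). Lrtm1, a leucine-rich repeat membrane protein, was 9.74, 9.21 and 7.87 in WT and 6.78, 6.46 and 7.80 in KO mice. WT F4 and KO F8 nearly met, and the difference of -1.92 (SE 0.53) was -3.28 within wide and -1.25 within narrow arrays. Kcnk5, a potassium channel, stood lower at -0.68 (SE 0.23), Grk5, a kinase of G protein-coupled receptors, at -0.61 (SE 0.21), and Dexi at -0.60 (SE 0.21).

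Fatty acid oxidation genes lay near the median of all genes. Of 31 PPAR-alpha targets 14 were above 0, with a median of -0.02, and of 23 genes of mitochondrial oxidation and ketogenesis 16, with a median of 0.04 and differences from -0.10 to 0.13. Leaving out single fed arrays moved these medians across 0, from -0.14 to 0.25 and from -0.13 to 0.22. Cyp4a14, a fatty acid omega-hydroxylase, was 9.40, 7.86 and 8.84 in WT and 10.68, 9.86 and 9.15 in KO mice. KO F8 lay below WT F1, and the difference was 1.19 (SE 0.39, 95% confidence interval 0.33 to 2.05), 0.45 within wide and 1.56 within narrow arrays. Cyp4a12a, a male-biased member of the family with the near-identical copy Cyp4a12b, differed by 0.47 (SE 0.21). Of 26 male-biased genes 20 were above 0 (median 0.09), and of 26 female-biased genes 17 were below 0 (median -0.07). Cish, a growth hormone-induced inhibitor of cytokine signalling, differed by -0.81 (SE 0.31), and Bcl6, a transcriptional repressor, by 1.24 (SE 0.69) with overlap. Rarb, a retinoic acid receptor, was 7.81, 7.59 and 7.44 in WT and 7.07, 6.99 and 7.29 in KO mice, apart (-0.50, SE 0.13). Respiratory chain genes had 17 of 50 above 0 (median -0.03), and cytosolic ribosomal protein genes 30 of 75 (median -0.03). In either list 0 genes had an unadjusted limma p under 0.05 (2.91% of all genes). Both medians crossed 0 when single fed arrays were left out, from -0.13 to 0.07 and from -0.27 to 0.15.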

How the data were processed

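Liver RNA of 12 mice was hybridised, after Ambion and Affymetrix whole-transcript labelling per the labels' protocols, to 1 array each. The authors deposited 1 log2 level per probe set and array; the submitters' processing notes name RMA, oligo and limma. The sources used here give no versions, array model or genome build. RMA, as usually run, sets all arrays to shared quantiles, so a shift common to all genes may not be seen. The deposited values did not share quantiles. Over the 12 arrays their interquartile range ran from 2.62 to 3.06 and their median from 6.39 to 6.53. The series matrix equals the annotated table in all 347328 cells.

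Of 28944 lines, 5132 lacked a symbol and were tested apart; 0 of them were called by limma and 159 had an unadjusted p under 0.05. The line with the highest mean over 12 arrays stood for a symbol, which left 20719 genes. limma 3.58.1 in R 4.3.3 fitted 4 group means (lmFit, eBayes), with Benjamini-Hochberg adjustment over all genes and a threshold of 0.05; the interaction is the fed minus the starved genotype difference. Nothing states that mice came from separate litters, so p-values measure the spread between these samples.

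Members, 43 pathway and 13 marker lists (1422 of 1450 genes matched) were chosen with earlier results of these data known. The naming rule took, per direction, the 12 called genes of largest difference with groups apart, filled up (here wholly) by smallest p from genes with groups apart, at least 1.5-fold and a fed mean above the median gene, leaving out predicted models, olfactory, vomeronasal and taste receptors, immune receptor segments and small RNAs. It took 4 per direction likewise for the interaction, up to 3 per list by smallest p, Lamp2, and members of a list under discussion by value; some genes it took are not reported here. Alternatives covered lines per symbol, filters, scaling, weights, eBayes options, blocks and single arrays; the fit was tested on simulated data. Promoters came from a RefSeq table. Figures used matplotlib 3.10.9 in Python 3.11.15.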

Additional observations from a re-analysis of the deposited data

Results flagged for a closer look

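For 8 named genes the genotype groups lay apart in fed and in starved mice in opposite directions, so the fed minus starved difference was examined. It was 5.24 for Lcn2, 3.95 for Orm2, 2.48 for Kcnt2, 1.78 for Fgl1, 0.82 for Id2, an inhibitor of helix-loop-helix factors, and 0.45 for Pdgfrb. It was -0.66 for Flcn, the folliculin gene, and -0.51 for Ccng2. The interaction was tested with limma and passed for none of these 8 (adjusted p = 0.409 for Lcn2 and 1 for the others), while 422 of 20719 genes had an unadjusted p under 0.05. With array spread as a block the adjusted p for Lcn2 was 0.0599. Without WT starved replicate S4 it was 0.00237, the only call among the settings that left out an array. Over all genes, 52 (0.251%) lay apart in both states in opposite directions and 175 (0.845%) in the same direction. In starved WT mice Lcn2 and Orm2 varied between replicates, from 10.64 to 13.23 and from 9.57 to 13.18, against 9.29 to 9.50 and 8.87 to 9.11 in starved KO mice.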

How the results depend on the processing

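The naming rule required non-overlapping groups, so the direction of the 22 named genes could not turn when an array was left out, and the spread block returns the same differences; their direction is no sign of stability. Several list medians changed sign without single arrays, as given beside them. The count of called genes stayed at 0 for other choices of line, filters on dim genes, cyclic loess, median centring, robust eBayes with a trend, the 6 fed arrays alone and a spread block at the largest gap between arrays, which set only WT starved replicate 3 apart. It was 1267 with array weights, 491 higher and 776 lower; these gave KO F5 a weight of 6.14 and WT F4 one of 4.01 and the other fed arrays 0.359 to 0.638, so that the comparison leans on 1 mouse per group. With array spread as a block it was 4, with the interquartile range as a covariate 4, and with the block in the fed arrays alone 5, choices made after seeing the data. Postn was called in each of these 3 fits, and Mfsd2a and Scgb1c1 in the first 2. Lcn2 and Derl3, higher in KO, and Hamp2, lower in KO, were called in the last. At an unadjusted p under 0.05 there were 603 genes, 395 and 202 when only genes above the 25th percentile or the median were tested (fewer genes), 4987 with array weights, and 1471, 1264 and 1493 in the 3 spread fits. Leaving out single arrays left 0 called and gave 445 (without F5) to 899 (without F1). For the interaction 0 genes were called, 106 with array weights and 0 to 1 without single arrays. Its unadjusted count of 422 was 185 for genes above the median, 3393 with array weights, 743, 1196 and 994 with spread as a block at the largest gap, at the median or as a covariate, and 310 to 829 without single arrays (829 without WT fed replicate F1, 743 without WT starved replicate 3). Where no construction shows it, the cause was not tested. No paired analysis of the fed comparison was possible because WT and KO fed mice share no replicate number. With the replicate block on title numbers, which fed and starved mice share in part, 0 genes were called and 594 had an unadjusted p under 0.05 (interaction 434, duplicate correlation 0.0226). Signal over background per probe was not used here, so dim genes cannot be told from absent ones.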

Other observations

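Of 43 cell cycle and mitosis genes 34 were below 0 in KO fed liver, with a median of -0.08 that stayed between -0.12 and -0.06 whichever fed array was left out. In 5 of them every KO value lay below every WT value (5.36% of all genes). The limma test called 0 of them, and 0 had an unadjusted p under 0.05 (2.91% of all genes). With cyclic loess scaling 29 were below 0 and 3 lay apart with KO lower (4.2% of all genes). With median centring these were 30 and 3 (4.26% of all genes). In glycogen metabolism, 10 of 20 genes were above 0. Stbd1, a glycogen-binding protein, was 7.43, 7.81 and 7.87 in WT and 7.26, 7.06 and 7.38 in KO mice, without overlap (difference -0.47, SE 0.17). Among 30 glycolysis genes 20 were below 0 (median -0.04), and Pdk1, a kinase that restrains pyruvate dehydrogenase, differed by -0.43 (SE 0.16) with overlap. The mean level of 10 skeletal muscle markers was 6.11 to 6.18 in WT and 6.05 to 6.08 in KO arrays, a difference of -0.08. These levels are below the median value of each fed array (6.41 to 6.47). An exact two-sided permutation test gave p = 0.1, the smallest that 3 against 3 arrays allow. The test was run on each of the 13 marker lists without adjustment for their number, and this list is given because its p was the lowest.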
